A study of Mus musculus with 61 samples.

Results

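The genes described here are 7 interferon-related genes of mouse CD4 T cells, Irf9, Ifih1, Eif2ak2, Trim25, Trim34a, Ifi27l2a and Ogfr, whose transcripts stood higher with IL-27 in the first hours of culture and lower with IL-27 after the first day. They were chosen by measured values, namely a difference above 0 early and below 0 late on the HT_MG-430A arrays, so that difference is a description of the members and no finding. They are 7 of 12291 genes named on the arrays and hold 13 of 22626 probe sets.

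The series followed naive CD4 T cells of C57BL/6 mice as they were driven toward type 1 regulatory (Tr1) cells, a T cell type known for IL-10. The IL27 arm and the ctrl arm are named by the array titles. All cells were stimulated with an antibody to CD3 at 1 µg/ml and a second antibody at 1 µg/ml, which the protocol writes as an antibody to CD8. IL-27 was given at 25 ng/ml, and that protocol text is attached to the ctrl arrays too, so the arm was taken from the title. Titles give times without a unit, read here as hours, and the suffix d on some titles is not explained in the sources used here. No label ties an array to its own culture or mouse, so the p-values here measure array-to-array spread that may be technical.

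HT_MG-430A arrays, an Affymetrix type that summarises groups of probes as probe sets, numbered 26 in the IL27 arm and 26 in the ctrl arm over 18 times from 0.5 to 72 h. Of these times, 8 had 2 arrays per arm and 10 had 1. They were grouped as early (0.5 to 4 h, 5 arrays per arm), middle (8 to 20 h, 9 per arm) and late (25 to 72 h, 12 per arm). A further 6 arrays of the Mouse430A_2 type, 1 per arm at 4, 16 and 48 h, were not used to choose the genes. The ctrl array at 12 h stood apart, with a highest correlation to any other array of 0.870, against at least 0.980 for the others. The T cell markers Cd3e, Cd3d and Cd4 lay above the array's median on all 52 HT_MG-430A arrays, Cd8a on 0 of 52 and Cd8b1 on 52. The summed CD8 markers ran from 65.8 to 151 with IL27 (median 108) and from 110 to 326 in ctrl (median 179) late, and from 55.6 to 136 with IL27 (median 80.6) and from 100.3 to 158 in ctrl (median 142) in the middle window. Their part in the results below was not tested. Of the markers for cells other than T cells, Ighm alone was above the median on all 52 arrays, with sums for the 4 B cell markers of 430 to 1703 with IL27 and 517 to 2165 in ctrl late.

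As background, interferons act through JAK kinases and STAT proteins, and IRF9 is part of a complex that binds interferon-stimulated response elements (ISRE) in antiviral genes. IL-27 is a cytokine whose receptor, IL27RA with gp130, activates JAK-STAT signalling in T cells, and it shares targets with the interferons. A different element in interferon-responsive genes is the gamma-activated site (GAS). Among the 7 genes, Irf9 encodes the DNA-binding subunit of the ISRE-binding complex. Ifih1 encodes MDA5, a cytosolic sensor of long double-stranded RNA, and Eif2ak2 encodes PKR, a kinase that double-stranded RNA activates and that halts translation by phosphorylating eIF2 alpha. Trim25 and Trim34a encode members of the TRIM family of ubiquitin ligases. Ifi27l2a encodes a small interferon-induced membrane protein, and Ogfr the receptor for opioid growth factor (met-enkephalin), which slows cell division.

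Promoter sequences, 250 bases before to 50 after each annotated start, were available for 6 of the 7 genes in RefSeq (GRCm38.p6), with no entry for Ifi27l2a. The letters GAAANNGAAA, an ISRE core searched on both strands, were present for 4 of the 6 genes, each between base 11 and base 42 after the start, counting the start as base 1. The same letters were in any promoter of 4.08% of 5909 genes tested on the HT_MG-430A arrays. They were in 25 of 74 genes of the interferon and partner lists described below (33.8%). Of all 27025 genes searched 3.99% held them in any promoter, and of all 32851 promoters 3.44%. The letters TTCNNNGAA, a GAS core, were found for 1 of the 6, Eif2ak2, at bases -178 to -170, against 8.19% of those 5909 genes. The matches overlapped no other match. The 30 bases around each match are shown on the strand of the gene with the matched letters in capitals, to show how alike the ISRE matches are in place and letters.
Ifih1, chr2:62646206-62646235, minus strand: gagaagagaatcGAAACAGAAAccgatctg
Eif2ak2, chr17:78882535-78882564, minus strand: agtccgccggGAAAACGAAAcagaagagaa
Trim34a, chr7:104244457-104244486, plus strand, reverse complement of the letters: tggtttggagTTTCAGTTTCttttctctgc
Ogfr, chr2:180589427-180589456, plus strand, reverse complement of the letters: gcttcctcctcTTTCACTTTCctttccgcg
Eif2ak2 GAS match, chr17:78882731-78882760, minus strand: ctgcagagctTTCCCAGAAtggaagccagg
Irf9, with 2 annotated starts, and Trim25 held neither set of letters in these windows. A match is a string of letters and not a measured binding site.

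**Figure D1:**
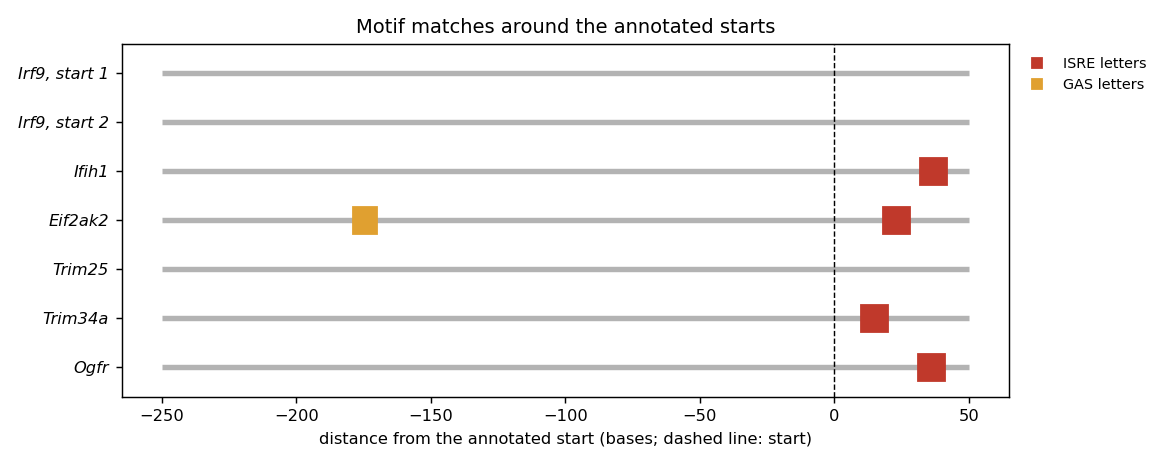
Positions of the ISRE and GAS letters from 250 bases before to 50 after the annotated start (x axis, bases) for the genes with a RefSeq promoter, Irf9 with 2 starts. The 4 ISRE matches lie just after the start, within bases 11 to 42, and the GAS match of Eif2ak2 lies at -178 to -170.

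The 7 genes differed in when they were highest and which arm moved. In bulk RNA of this kind, fewer cells of a type and less RNA per cell cannot be told apart. With IL27, the highest early mean per time came at 1 h for Irf9 and Trim25, at 2 h for Eif2ak2, Trim34a and Ogfr, and at 4 h for Ifih1 and Ifi27l2a, whose highest single arrays were at 2 h. For all 7 the mean level of 14 to 20 h lay below that of 0.5 to 4 h in both arms. Median summed myeloid markers were also lower in the middle window (216 early and 113 in the middle with IL27, 199.6 and 99.8 in ctrl). So were those of B cells (1650 and 947 with IL27, 1894 and 1583 in ctrl) and NK cells (71.6 and 37.7 with IL27, 80.7 and 39.2 in ctrl). CD4 T cell sums fell too (5933 and 2724 with IL27, 6716 and 3435 in ctrl), but CD8 sums only with IL27 (129 and 80.6, against 140 and 142 in ctrl). Ighm made most of the B cell sum, and Cd79a, Cd79b and Ms4a1 lay above the array's median on 1, 7 and 6 of 52 arrays. Of the NK markers, Ncr1 did so on 0, Klrc1 on 2 and Klrd1 on 13. The part of these markers was not tested. By 54 to 72 h the levels of Ifih1, Eif2ak2 and Ifi27l2a stood further above those of 14 to 20 h in ctrl than with IL27, while Irf9 and Ogfr with IL27 stood below them. The mean of 54 to 72 h over that of 14 to 20 h was 0.758 with IL27 and 1.06 in ctrl for Ogfr, 1.47 with IL27 and 3.13 in ctrl for Eif2ak2, and 1.21 with IL27 and 1.41 in ctrl for Trim25.

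**Figure D2:**
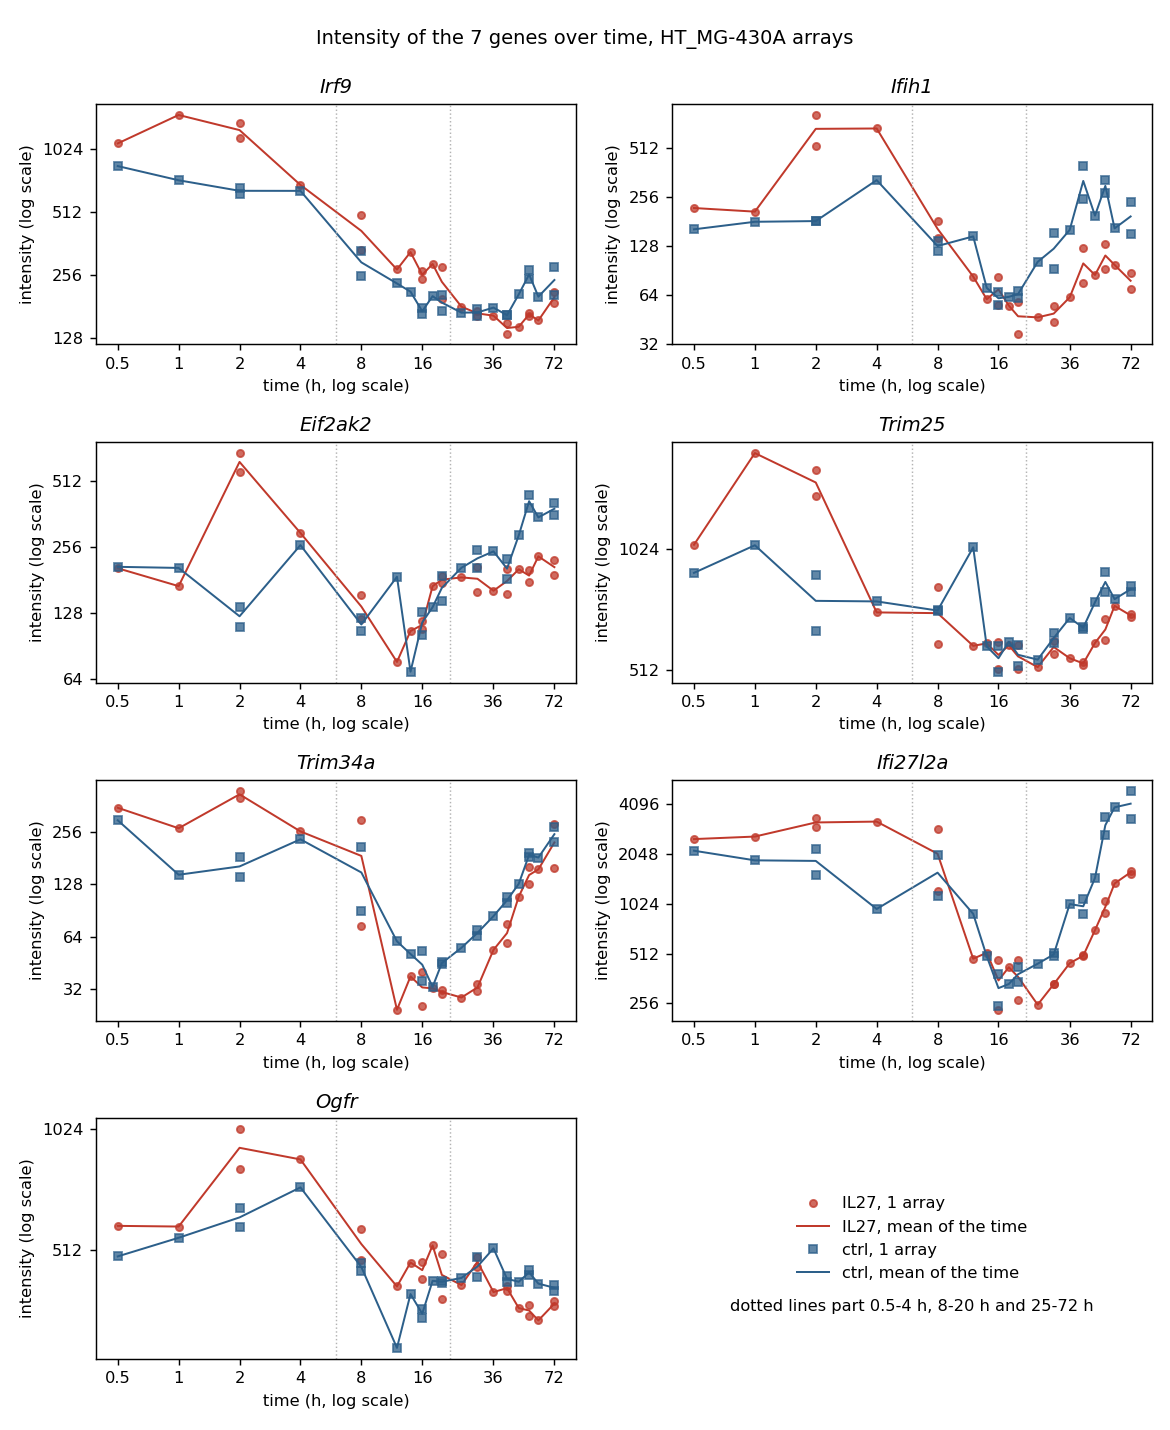
Intensity (log scale) of each of the 7 genes against time in hours (log scale) on the HT_MG-430A arrays, with IL27 as circles and ctrl as squares, 1 point per array and a line through the mean of each time. IL27 stands above ctrl at 2 h in all 7 panels, and ctrl above IL27 at 54 h in all 7.

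Irf9 intensity with IL27 was 1093 at 0.5 h, 1496 at 1 h, 1372 and 1160 at 2 h and 691 at 4 h, against 851, 728, 670 and 625, and 647 in ctrl at these times. The IL27 arrays were higher at each time, but the 4 h IL27 array lay below the 0.5 h and 1 h ctrl arrays, so the groups overlapped. Late, Irf9 ran from 134 to 212 with IL27 (median 163) and from 162 to 278 in ctrl (median 190). The fitted difference (IL27 minus ctrl, in units of log2(intensity + 32), as for every difference below) was 0.66 ± 0.12 early and -0.23 ± 0.08 late (SE). Irf9 was higher with IL27 at every time up to 25 h and lower at every time from 30 h, the latest turn among the genes apart from Ogfr. From the 14 to 20 h mean to the 54 to 72 h mean, its level changed to 0.624 times with IL27 and 1.20 times in ctrl.

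Ifih1 with IL27 read 220 at 0.5 h, 209 at 1 h, 528 and 821 at 2 h and 678 at 4 h, against 163, 181, 182 and 184, and 326 in ctrl. The 2 h arrays stood furthest apart, with a log2 difference of 1.69, while at 1 h it was 0.18. Late, Ifih1 ran from 44.1 to 132 with IL27 (median 80.7) and from 93.5 to 396 in ctrl (median 181), and it was lower with IL27 at 8 of 8 late times. The fitted differences were 0.98 ± 0.18 early and -1.04 ± 0.12 late. From 14 to 20 h on, the ctrl level climbed to 3.39 times by 54 to 72 h and the IL27 level to 1.66 times.

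Eif2ak2 was represented by probe set 1422005_at. With IL27 it read 205 at 0.5 h, 170 at 1 h, 565 and 687 at 2 h and 297 at 4 h, against 209, 206, 137 and 111, and 262 in ctrl. Its early difference rested on the 2 h arrays: at 2 h the log2 difference was 2.07, and at 0.5 h and 1 h IL27 lay below ctrl. The fitted early difference was 0.81 ± 0.23 with the 2 h arrays and -0.03 without them. Late, Eif2ak2 ran from 156 to 233 with IL27 (median 196) and from 183 to 443 in ctrl (median 270), a fitted difference of -0.51 ± 0.15. The largest late gap was at 54 h, with 202 and 179 with IL27 against 443 and 387 in ctrl. Its other probe set, 1422006_at, had mean single-time differences of 0.27 early, with 2 times higher and 2 lower, and -0.26 late. That probe set lay above the array's median on only 11 of 52 HT_MG-430A arrays.

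Trim25, a ubiquitin ligase known for its action on the RNA sensor RIG-I, is covered by 3 probe sets, and the brightest, 1419879_s_at, belongs to a class that can match more than 1 transcript. On it Trim25 read 1051 at 0.5 h, 1778 at 1 h, 1611 and 1394 at 2 h and 714 at 4 h with IL27, against 895, 1049, 882 and 643, and 760 in ctrl. IL27 was higher at 3 of the 4 times and lower at 4 h. Late, values ran from 522 to 741 with IL27 (median 603) and from 544 to 898 in ctrl (median 724), and the fitted differences were 0.56 ± 0.12 early and -0.22 ± 0.08 late. Mean middle differences were -0.14 on 1419879_s_at, 0.42 on 1425974_a_at and 0.20 on 1426415_a_at, but -0.0060, 0.074 and 0.18 over the 5 times without 12 h, so the 12 h pair, whose ctrl array stood apart, made most of that gap. Late, 1426415_a_at averaged -0.02 and was higher with IL27 at 5 of 8 times, whereas 1425974_a_at averaged -0.20. With probe sets fitted singly, 1425974_a_at passed neither early (0.52 ± 0.19) nor late (-0.18 ± 0.12).

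Trim34a, whose human counterpart TRIM34 restricts some retroviruses, has a close neighbour copy, Trim34b, and 1 of its 3 probe sets is assigned to both genes by one of the annotation tables, so signals of the copies may be mixed. On 1424857_a_at it read 354 at 0.5 h, 270 at 1 h, 441 and 405 at 2 h and 258 at 4 h with IL27, against 300, 145, 184 and 141, and 233 in ctrl. Late it ran from 28.5 to 287 with IL27 (median 92.1) and from 55.1 to 274 in ctrl (median 118), and the arms overlapped in both windows. The fitted differences were 0.72 ± 0.20 early and -0.38 ± 0.13 late. On the mean of each time, IL27 lay below ctrl at every time from 12 h on, though by only -0.014 at 18 h. The late gap was -0.62 at 30 h and -0.18 at 72 h, where 1 IL27 array (287) lay above both ctrl arrays (224 and 274). Mean levels at 54 to 72 h were 175 with IL27 and 207 in ctrl. At 14 to 20 h the signal lay below its own array's median on 3 of 6 arrays with IL27 and 0 of 6 in ctrl, so no fold is given over that base. Probe set 1426093_at was above the array's median on 0 of 52 HT_MG-430A arrays.

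Ifi27l2a was the one member whose early arrays did not overlap between arms. It read 2519 at 0.5 h, 2609 at 1 h, 3374 and 2977 at 2 h and 3214 at 4 h with IL27, against 2142, 1874, 2200 and 1518, and 952 in ctrl. Over all genes, 0.209% had early arrays that were higher with IL27 without overlap, and since early values chose the members, nothing is read from this. Late, Ifi27l2a ran from 251 to 1617 with IL27 (median 605) and from 444 to 4908 in ctrl (median 1278). At 72 h it read 1617 and 1554 with IL27 against 3341 and 4908 in ctrl, so the difference came with a climb of the ctrl level to 9.69 times its 14 to 20 h mean and of the IL27 level to 3.15 times. The fitted differences were 0.80 ± 0.22 early and -1.11 ± 0.14 late. Pooled over the late times, none of the 7 genes had arms without overlap, against 0.461% of all genes lower with IL27.

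Ogfr had the smallest differences. It read 589 at 0.5 h, 587 at 1 h, 818 and 1024 at 2 h and 862 at 4 h with IL27, against 495, 550, 584 and 652, and 734 in ctrl. Late it ran from 343 to 493 with IL27 (median 393) and from 406 to 518 in ctrl (median 438), and the arms overlapped in both windows. The fitted differences were 0.33 ± 0.08 early and -0.15 ± 0.05 late. Its other probe set, 1422512_a_at, gave mean single-time differences of 0.30 early and -0.17 late. With probe sets fitted singly, 1422512_a_at passed neither early (0.36 ± 0.15) nor late (-0.17 ± 0.10), and the brighter 1422511_a_at passed early but not late.

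**Figure D3:**
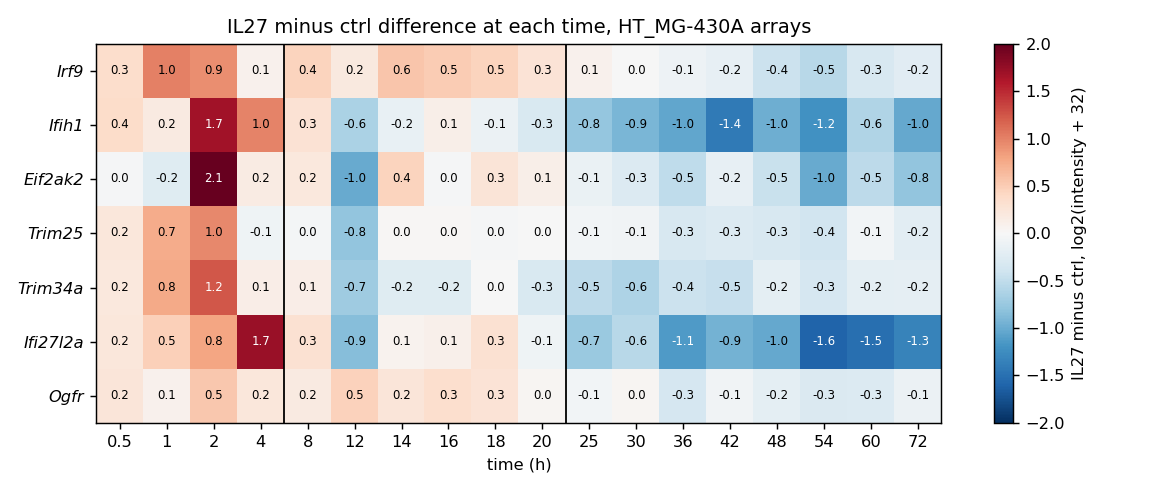
IL27 minus ctrl difference in log2(intensity + 32) for each gene (rows) at each of the 18 times in hours (columns), with red higher and blue lower with IL27 and black lines between the early, middle and late windows. The 2 h column runs from 0.54 for Ogfr to 2.07 for Eif2ak2, and the 54 h column is below 0 for all 7.

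On the brightest probe set of each gene, the sign of the difference last turned at different times, which was not tested. From 12 h on for Trim34a, 18 h for Ifih1 and Trim25, 20 h for Ifi27l2a, 25 h for Eif2ak2, 30 h for Irf9 and 36 h for Ogfr, the gene was lower with IL27 at every later time. Some of these differences were near 0 and rest on 1 or 2 arrays per arm. Across the 18 times, the differences of the 21 pairs of members correlated with Pearson r from 0.37 (Trim25 and Ogfr) to 0.88 (Trim25 and Trim34a), with a median of 0.72. These points share arrays, and the members were chosen for a like course, so the correlations are a description.

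All 7 members passed a threshold in both windows, an adjusted p under 0.05 from limma after Benjamini-Hochberg adjustment. Since values of these windows chose the members, this describes them and is no test. A difference above 0 early and below 0 late, of any size, was met by 22.1% of all genes tested. Early, 1.79% of 7163 genes were called higher and 0.531% lower with IL27, late 8.73% were called higher and 9.77% lower, and 14 genes (0.195%) were called higher early and lower late. The 14 include the 7 members, so nothing is read from that count. The other 7 were Cd274, Ifi47, Isg20, Mitd1, Nudt4, Psme1 and Ptger4. Of these, Ifi47, Isg20 and Psme1, which encodes a proteasome activator subunit, are in the list of interferon-stimulated genes used below. Just inside the threshold in 1 window were Ogfr (-0.15) and Trim25 (-0.22) late, and Ifi27l2a (0.80), Eif2ak2 (0.81) and Trim34a (0.72) early. Just outside it late were Trim21, at 1.15 early and -0.29 late, and Irf1, at 1.04 and -0.36. Nmi, at 0.38 and -0.32, was called late but not early (limma, adjusted p = 0.116). The early calls depended on 2 h: without its 4 arrays 11 genes were called in either direction instead of 166, and 0 of the 7 members passed. Without the arrays of suffix d, 2 of the 7 passed early and 2 late. Late, 2 of the 7 passed without 54 h, 3 without 42 h and 3 without 72 h.

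**Figure D4:**
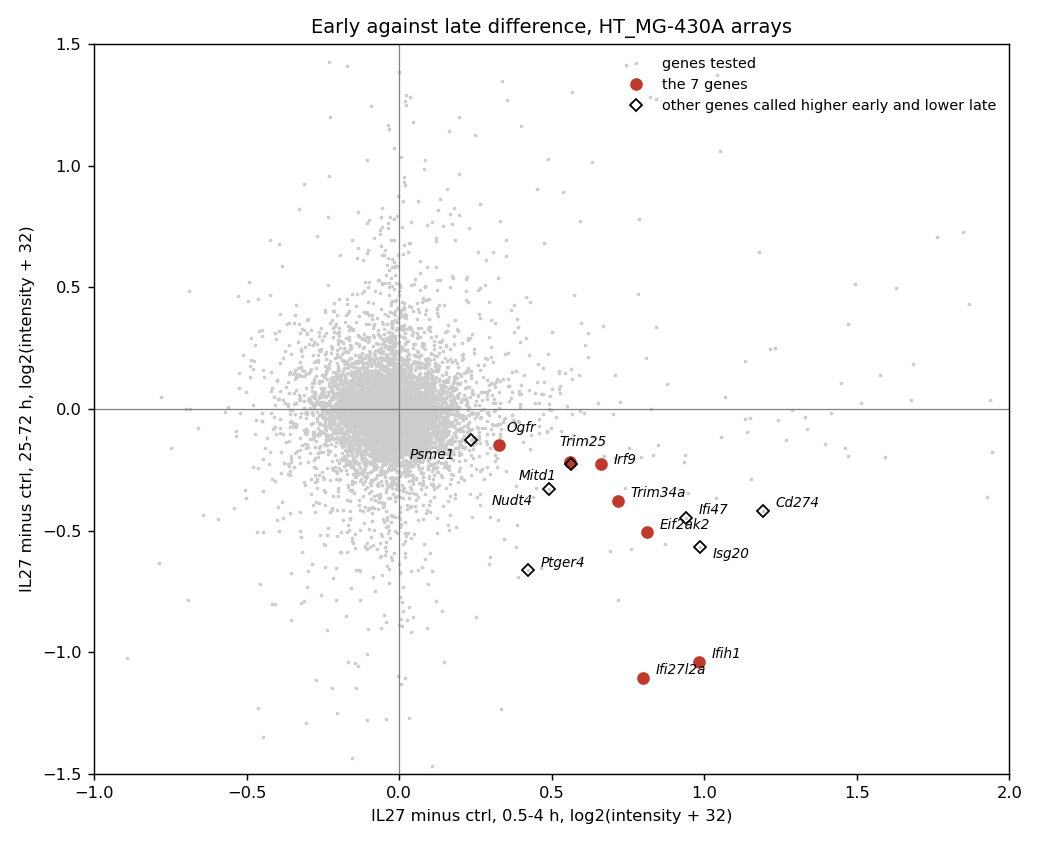
Early difference (x axis, 0.5 to 4 h) against late difference (y axis, 25 to 72 h), IL27 minus ctrl in log2(intensity + 32), for 7163 genes, 37 of them beyond the axes. The 7 genes (filled) and the other genes called higher early and lower late (open diamonds) lie at the lower right, with Ifih1 and Ifi27l2a furthest down.

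The middle window, 8 to 20 h, was not used to choose the members and can be tested. Irf9 ran from 196 to 495 with IL27 (median 279) and from 166 to 334 in ctrl (median 206) across 9 arrays per arm, and IL27 was higher at 6 of 6 times. Its difference of 0.41 ± 0.09 (SE) passed the test (limma, adjusted p = 0.017), so Irf9 was still higher with IL27 in this window. The call was lost without 14 h (0.39, limma, adjusted p = 0.0525), without 16 h (0.38, adjusted p = 0.215) and without the arrays of suffix d (0.39, adjusted p = 0.110). Ogfr ran from 387 to 578 with IL27 (median 479) and from 293 to 477 in ctrl (median 425), also higher at 6 of 6 times, with a difference of 0.23 ± 0.07 that did not pass (limma, adjusted p = 0.077). Without 8 h the Ogfr difference of 0.25 was called (limma, adjusted p = 0.0457), and its other probe set had 0.56 ± 0.16 (limma, adjusted p = 0.057).

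The other 5 genes had middle differences between -0.20 and 0.03, none called. Ifih1 ran from 37.2 to 184 with IL27 (median 60.5) and from 55.7 to 147 in ctrl (median 68.3), and Ifi27l2a from 234 to 2882 with IL27 (median 471) and from 247 to 2017 in ctrl (median 425). Their differences were -0.08 ± 0.10 and 0.02 ± 0.21, and those of Eif2ak2, Trim25 and Trim34a were 0.03 ± 0.13, -0.09 ± 0.10 and -0.20 ± 0.19 (limma, adjusted p from 0.576 to 0.969). Trim34a was called lower, at -0.29, when 8 h was left out. In this window 1 of the 7 genes was thus called higher and 0 lower, against 3% and 3.38% of 6657 genes. Without the 12 h ctrl array that count was the same. That array held the highest ctrl value of the window for Trim25 (1036) and for Ifih1 (147), and Ogfr had its lowest ctrl value there (293).

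Within 8 to 20 h no change of the difference between the arms with time was called. The change of the IL27 minus ctrl difference per doubling of time lay between -0.30 (Ifih1) and 0.10 (Trim25) over the 7 genes, and none was called (limma, adjusted p = 0.999). Over all genes the count was 0 of 6657 (0%), with 49 positive and 117 negative at an unadjusted p under 0.05.

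Both arms fell together in this window for 4 of the 7 genes. With IL27 the slope in log2(intensity + 32) per doubling of time was -1.78 ± 0.33 for Ifi27l2a, -1.18 ± 0.30 for Trim34a, -0.96 ± 0.15 for Ifih1 and -0.51 ± 0.14 for Irf9 (limma, adjusted p from 0.00032 to 0.017). In ctrl the slopes were -1.66 ± 0.33 for Ifi27l2a, -0.96 ± 0.30 for Trim34a, -0.66 ± 0.15 for Ifih1 and -0.46 ± 0.14 for Irf9 (limma, adjusted p from 0.0020 to 0.031). Trim25, Ogfr and Eif2ak2 had slopes of -0.24, -0.13 and 0.24 with IL27 and of -0.34, -0.08 and 0.20 in ctrl, none called. Among all 6657 genes 7.83% fell with IL27 and 7.77% fell in ctrl. At 8 h the 2 arrays of an arm stood apart for Trim34a and Ifi27l2a, the suffix d array being higher. Trim34a read 74.1 and 299 with IL27 and 90.1 and 210 in ctrl. Ifi27l2a read 1226 and 2882 with IL27 and 1139 and 2017 in ctrl. By 14 to 20 h Trim34a lay below the array's median on 3 of 6 IL27 arrays and 0 of 6 in ctrl. The calls rested on the 8 h arrays: without them 0 of the 7 fell with IL27 and 2 in ctrl, and the IL27 slopes were -0.56 for Ifi27l2a, 0.09 for Trim34a, -0.67 for Ifih1 and -0.35 for Irf9. The ctrl slopes without 8 h were -1.36 for Ifi27l2a, -0.39 for Trim34a, -0.94 for Ifih1 and -0.30 for Irf9. Without 16 h the counts were 2 with IL27 and 2 in ctrl, without 20 h 3 and 2, without 18 h 4 and 3, and without the arrays of suffix d 1 and 1. They were 4 and 5 without 12 h and 5 and 5 without the 12 h ctrl array, the gene added being Trim25.

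The Mouse430A_2 arrays allow the turn itself to be read on arrays that did not choose the genes, with 1 array per arm and time. Irf9 read 951 at 4 h, 486 at 16 h and 237 at 48 h with IL27, against 570, 333 and 437 in ctrl. Ifih1 read 581, 76.9 and 336 with IL27, against 201, 106 and 1047 in ctrl. Ifi27l2a read 4156, 904 and 1564 with IL27, against 1612, 782 and 5370 in ctrl. In each of these 3 genes IL27 was above ctrl at 4 h and below it at 48 h, and at 48 h the ratio of IL27 to ctrl was 0.543, 0.321 and 0.291 in that order.

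Eif2ak2 read 113, 110 and 155 with IL27 at the same times, against 64.6, 97.0 and 343 in ctrl. Trim34a read 315, 87.8 and 351 with IL27, against 161, 137 and 529 in ctrl. Ogfr read 1472, 897 and 754 with IL27, against 1414, 817 and 987 in ctrl. These too were above ctrl at 4 h and below it at 48 h, though the 4 h ratio for Ogfr was 1.04. Trim25 was the exception, with 1934, 1487 and 1658 with IL27 against 2494, 1372 and 1820 in ctrl. It was thus lower with IL27 at 4 h and at 48 h. On the HT_MG-430A arrays Trim25 was lower with IL27 at 4 h too (714 against 760 in ctrl). Its early rise there lay at 0.5 to 2 h, times without Mouse430A_2 arrays. Its probe set 1425974_a_at was likewise lower at 4 h, at 1182 with IL27 and 1491 in ctrl, whereas 1426415_a_at was higher, at 311 with IL27 and 250.2 in ctrl.

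Thus 6 of the 7 genes were above ctrl at 4 h and below it at 48 h, against 14.8% of 6509 genes. At a size of 1.5-fold or more at both times on the (intensity + 32) scale it was 4 of 7, Irf9, Ifih1, Eif2ak2 and Ifi27l2a, against 0.615% of all genes. Eif2ak2 only just reached that size at 4 h, with a log2 difference of 0.587. Its 4 h ctrl value of 64.6 lay below that array's median of 78.9. The change of the difference per doubling of time was negative for 6 of the 7, against 37.7% of all genes. For Ifih1 it was -0.82 ± 0.06 (SE) and was called (limma, adjusted p = 0.0496), 1 of only 3 genes called negative (0.0461%), with Ifitm3 and Tnfsf11. Ifi27l2a had -0.85 ± 0.10 (limma, adjusted p = 0.128), Eif2ak2 -0.43 ± 0.09, Irf9 -0.41 ± 0.11, Trim34a -0.40 ± 0.10, Ogfr -0.11 ± 0.08 and Trim25 0.07 ± 0.08, none called. This fit has 1 residual degree of freedom before the spreads are moderated, and without the filter on low values, or with genes above the median alone, the Ifih1 call was lost. The mean IL27 minus ctrl difference over the 3 times ran from -0.17 to 0.14 and was called for 0 of the 7 and for 0 of 6509 genes (0%), with 151 higher and 327 lower at an unadjusted p under 0.05 (limma).

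**Figure D5:**
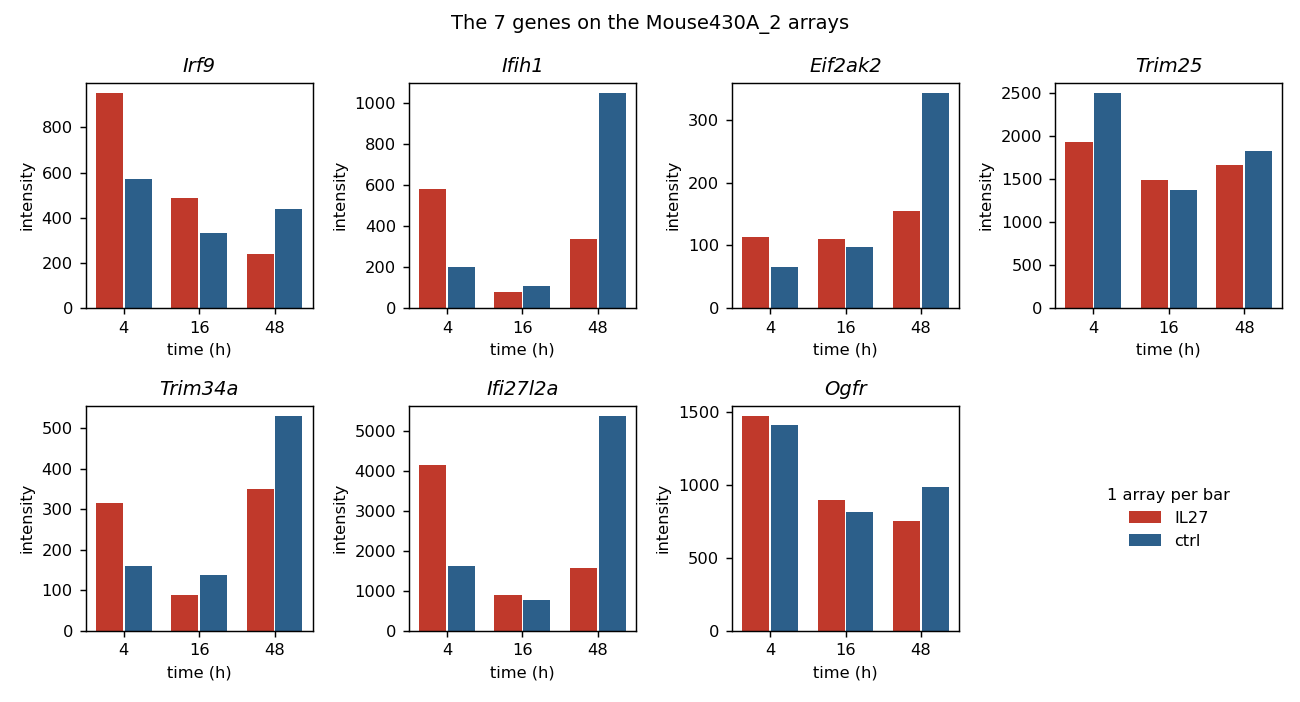
Intensity (linear scale from 0) of the 7 genes on the Mouse430A_2 arrays at 4, 16 and 48 h, with the IL27 array left of the ctrl array at each time, 1 array per bar. The IL27 bar is the higher one at 4 h except for Trim25, and the ctrl bar is the higher one at 48 h in all 7.

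Other genes of the interferon pathway were set beside the members by lists. Among interferon-stimulated genes outside the 7, 30 of 41 tested were called higher early and 0 lower (limma), against the 1.79% and 0.531% of all genes given above, with a median difference of 1.04 against -0.03 over all genes. The T cell chemoattractant Cxcl10 had 2.66 ± 0.24, Ifit1, which binds foreign RNA, 2.04 ± 0.28, the GTPase gene Gbp3 1.85 ± 0.26 and the antiviral enzyme Rsad2 0.83 ± 0.08 (SE, limma, adjusted p from 3.42e-09 to 1.52e-05). Without the 2 h arrays 2 of the list were called, and without those of suffix d 17. In the middle window 18 of 32 were still called higher, against 3% of all genes, with a median of 0.62, among them Lgals3bp, which encodes a secreted glycoprotein, at 1.14 ± 0.09, the GTPase genes Irgm1 at 2.06 ± 0.19 and Gbp10 at 2.03 ± 0.19 and the transcription factor gene Irf8 at 1.53 ± 0.15. Late, 3 of 41 were higher, Gbp2 at 0.71, Gbp3 at 0.73 and Pml at 0.51, and 6 were lower, Ifitm3 at -0.79, Isg20 at -0.57, Lgals9 at -0.46, Ifi47 at -0.45, Nmi at -0.32 and Psme1 at -0.13. Over all genes 8.73% were higher and 9.77% lower late, which is also the background of the late counts in the lists below. For their early counts it is 1.79% higher and 0.531% lower, and for the middle window 3% higher and 3.38% lower. Without 42 h 3 were lower, and without suffix d 2 were higher and 2 lower. Of all 92 list genes tested, 40 had a difference above 0 early and below 0 late, against 22.1% of all genes, and 3 of them were called in both windows. On the Mouse430A_2 arrays the change of the difference per doubling of time was negative for 29 of 29 interferon-stimulated genes of the list, against 37.7% of all genes. Of the 29, 1 was called, Ifitm3, against 0.0461% of all genes.

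Around Irf9, in the receptor and JAK-STAT list of 11 tested genes, 2 were called higher early and 0 lower (limma). Its partner in the complex, Stat2, had 1.29 ± 0.20, and the gp130 gene Il6st 0.59 ± 0.16, but neither was called without 2 h. In the middle window Stat3 (0.83 ± 0.21) and Ifnar2 (0.27 ± 0.07) were higher and Ifngr2 (-0.96 ± 0.13) and Tyk2 (-0.19 ± 0.05) lower. Without 14, 16, 18 or 20 h, or without suffix d, 0 were called higher and 1 lower. Late, Il27ra (0.35 ± 0.06) and Jak2 (0.25) were higher, and Ifngr2 (-0.80 ± 0.12), Ifnar1 (-0.30 ± 0.07) and Tyk2 (-0.15 ± 0.05) lower, and without 42 h 1 was higher and 2 lower. In the feedback list of 8 genes, which restrain JAK-STAT signalling, Socs1 (1.94 ± 0.28), Socs3, Usp18 (1.21 ± 0.25) and Cish (0.93 ± 0.18) were called higher early and 0 lower, and 2 without 2 h. In the middle window Socs3 (1.45 ± 0.17) and Socs1 (1.40 ± 0.22) were still higher, the call of Socs1 being lost without suffix d. Late, Socs3 (1.85 ± 0.14) and Ptpn2 (0.52 ± 0.07) were higher and Socs2 (-0.85 ± 0.26) lower, the last not without 30 h, 42 h or suffix d.

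Around Ifih1, in the RNA sensing list, 2 of 8 genes were called higher early and 0 lower (limma), Irf7 (1.14 ± 0.15), a transcription factor that drives type I interferon genes, and Zbp1 (1.94 ± 0.31), a nucleic acid sensor. Without 2 h neither was called. Zbp1 was higher in the middle window (1.30 ± 0.16), and late the kinase gene Ikbke was lower (-0.42 ± 0.12). Around Eif2ak2, in the list of eIF2 alpha kinases and partners, 0 of 10 genes were called early (limma), with 0 higher and 1 lower at an unadjusted p under 0.05. Late, Ddit3 (0.71 ± 0.11) and Ppp1r15a (0.37 ± 0.10), which act downstream of eIF2 alpha phosphorylation, were called higher and 0 lower. Without 54 h or without suffix d 1 was higher and 0 lower, and without 72 h 1 was higher and 1 lower. In the middle window 0 of 9 were called, with 1 higher and 0 lower at an unadjusted p under 0.05.

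Around Trim25 and Trim34a, in the TRIM list of 11 tested genes, Trim21 (1.15 ± 0.18) and Trim30a (0.94 ± 0.21) were called higher early and Trim8 (-0.48 ± 0.11) lower, and none of them without 2 h. In the middle window 0 were called (limma), with 2 higher and 1 lower at an unadjusted p under 0.05. Late, Trim12a (-0.32 ± 0.10) was called lower, but not without 30, 42 or 54 h or suffix d. Around Ogfr, Penk, which encodes the precursor of met-enkephalin, had -0.13 ± 0.31 early, which was not called, and was lower in the middle window (-0.53 ± 0.09) and late (-1.62 ± 0.20). The Penk call of the middle window was lost without suffix d. The related Ogfrl1 was lower late (-0.17 ± 0.05), and 1 of these 2 late calls was left without 42, 54 or 72 h or suffix d, while Cdkn1a, a cell cycle inhibitor, was not called early or late.

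The genes whose course of differences over the 18 times was most like the mean standardised course of the 7 were Slfn8 (Pearson r = 0.92), Trim21 (0.92), Ifi205 (0.91), Trim12a (0.90), Rgs1 (0.89), Zbp1 (0.88), Trim30a (0.88), Parp14 (0.86), Irf7 (0.85) and Cxcl10 (0.85), of 7156 other genes ranked. These are correlations over 18 times on shared arrays, given with no test. None of the 10 was called in both windows. Slfn8 was called early (1.46) and had -0.16 late, which was not called, whereas Ifi205 was called late (-2.33) and had 0.63 early, which was not called.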

How the data were processed

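Each array had a deposited intensity on a linear scale for 22626 probe sets. The submitters' processing notes name MAS5. Its scaling and background settings are stated by no source used here. Array medians lay at 28.0 to 36.6 on HT_MG-430A arrays, and at 70.7 to 78.9 on the other type, so the intensities of the authors were taken as scaled within each type, and the types were tested apart. Gene names came from both platform tables (1 gene for 20173 probe sets, several for 942, none for 1511), and only probe sets with 1 gene entered the fits. The brightest probe set stood for a gene. For Eif2ak2, Trim25, Trim34a and Ogfr it was named by the Mouse430A_2 table alone.

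Values were tested as log2(intensity + 32), which understates changes of low genes, with limma 3.58.1 in R 4.3.3 (eBayes with trend). A call means a Benjamini-Hochberg value under 0.05 over all genes tested. A gene had to exceed the median of its array on 5 or more arrays entering a fit (3 on Mouse430A_2). All 7 members passed. Early and late differences came from 1 model of the 52 arrays with time as a factor, and the middle window from its own 18 arrays. Scripts were tested on simulated data. The number of arrays limits the precision.

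The members and lists were chosen with earlier results of these data known. The rule named every member with its probe sets, up to 4 genes per list and comparison by smallest adjusted p, genes near the thresholds, and the 10 genes most alike in course. Other called list genes, and Cdkn1a and Penk where not called, were named after their values were seen. Alternatives tried were other pseudocounts, filters, normalization and probe set rules, a block for time and suffix, and leaving out times, the suffix d arrays or the 12 h ctrl array.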

Additional observations from a re-analysis of the deposited data

Results flagged for a closer look

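One member met a rule for a difference between groups under the same contrast. The IL27 minus ctrl difference of Ifih1 on the Mouse430A_2 arrays changed by -0.82 per doubling of time between 4 and 48 h (limma, adjusted p = 0.0496), from 6 arrays, with IL27 above ctrl at 4 h and below it at 16 and 48 h.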

How the results depend on the processing

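With 1 time left out at a time, they ran from 142 to 771 for the middle difference (425 with all arrays), 0 to 11 for its change with time (0), 103 to 2328 for the IL27 course (1098), 723 to 2540 for the ctrl course (1327), 11 to 192 early (166), 883 to 1335 late (1325) and 0 to 163 for the mean Mouse430A_2 difference (0). The Mouse430A_2 change with time could not be fitted with a time left out, because no residual degree of freedom was left. Without the 12 h ctrl array the counts were 679 for the middle difference, 11 for its change with time, 2329 for the IL27 course and 2543 for the ctrl course. Without the arrays of suffix d they were 153, 151 for the IL27 course, 217 for the ctrl course and 57 early. The fit on all 52 arrays called 764 in the middle window. The change with time in the middle window had 2 calls with a pseudocount of 1 and 1 with no filter. That on Mouse430A_2 had 12 with a pseudocount of 1, 14 with 100, 6 with probe sets as features, and 0 both with no filter and with genes above the median mean, against 3. With the replicate block (time and suffix) in place of time, 580 genes were called in the middle window, and no member's call changed.

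Among the members, the sign turned both for values near 0 and for 2 large ones, Eif2ak2 early (0.81 with all arrays, below 0 without 2 h) and Trim34a in the IL27 course (-1.18, above 0 without 8 h). Leaving out times gave Eif2ak2 -0.030 to 1.07 early and -0.019 to 0.16 in the middle window, Ifi27l2a -0.066 to 0.13 in the middle window and Trim34a -1.43 to 0.087 for the IL27 course. Without suffix d the middle difference was -0.016 for Eif2ak2 and -0.072 for Ifi27l2a. With the mean of probe sets Trim25 had 0.12 in the middle window and -0.073 for the Mouse430A_2 change with time. The cause was not tested.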

Other observations

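Arrays outside the comparisons are given as values. The Mouse430A_2 ctrl array at 0 h read 1711 for Irf9, 680 for Ifih1, 114 for Eif2ak2, 3123 for Trim25, 2349 for Trim34a, 7401 for Ifi27l2a and 937 for Ogfr. For Irf9, Trim25, Trim34a and Ifi27l2a this was above every other Mouse430A_2 array of the IL27 and ctrl arms. On that array the summed markers of myeloid cells were 1411, against 184 to 386 on the 6 later arrays of the arms. Those of NK cells were 1319, against 51.3 to 99.5, and those of B cells 14507, against 1638 to 6792. Klrd1 made most of that NK cell sum, at 1284, and Ighm most of that B cell sum, at 14179. Of all 9 Mouse430A_2 arrays, Ncr1, Klrc1 and Cd79a lay above the array's median on 0, Ms4a1 on 1 and Cd79b on 2. The part of these markers in the levels of the genes was not tested. The arrays named GFPP and GFPN at 48 h, names not explained in the sources used here, read 271 and 282 for Ifih1, 2191 and 2517 for Ifi27l2a, 352 and 354 for Irf9 and 143 and 200.1 for Eif2ak2.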
